A study of Mus musculus with 2 samples.

Results

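The enzymes described here write, copy and remove cytosine methylation. They are 9 genes picked by symbol from the deposited read count table of 24061 rows: Dnmt1, Uhrf1, Dnmt3a, Dnmt3b, Dnmt3l, Tet1, Tet2, Tet3 and Tdg. Each symbol stood on its own row, and 8 of the 9 had enough counts to be measured. The study sequenced poly(A) RNA of C57BL/6 mouse embryonic stem cells kept on embryonic fibroblast feeder cells in a medium with serum replacement and leukaemia inhibitory factor. One library was labelled Pc4-OE, for overexpression of the transcriptional coactivator PC4 (encoded by Sub1) from a Venus-marked lentivirus, at passages 24 to 37. The other was labelled control, at passages 17 to 23, and the passage difference and the label cannot be told apart. Of 3 overexpressing lines that the design text lists, the labels do not say which gave the library, nor whether feeder cells were removed.

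Cytosine methylation at CpG dinucleotides is laid down by the de novo enzymes DNMT3A and DNMT3B, which the catalytically inactive DNMT3L stimulates. UHRF1 binds the half-methylated CpGs left by replication and brings in DNMT1, which copies the mark to the new strand. The TET enzymes oxidise methylcytosine to hydroxymethylcytosine and further forms, and the glycosylase TDG cuts out the most oxidised of these for base excision repair. Mouse embryonic stem cells are known to express both arms at high levels, with TET1 and TET2 as their main TET enzymes.

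The Pc4-OE-labelled library held 10194783 counts and the control-labelled library 10571463. Sub1 itself was at 235.0 CPM (counts scaled to a common library size) in the library labelled Pc4-OE, against 530.3 CPM in the library labelled control, 2.26-fold lower. The label would have it higher if reads of the inserted PC4 sequence count under Sub1, which is not known here. Each library is therefore named only by what it is labelled. Whether the labels are attached to the right libraries was not tested, and exchanging them would turn every direction given here. With 1 library per label there is no spread between cultures, no p-value can be given, and neither library can be left out. The 95% intervals below cover counting error only, and a difference between these libraries has no replicate check. All 18 fibroblast markers had a ratio above 1, none of them was at 0 in either library, and their summed level was 16113 CPM in the Pc4-OE-labelled library and 6681 CPM in the control-labelled one. All 15 measured macrophage markers also had a ratio above 1, with sums of 634.9 CPM in the library labelled Pc4-OE and 230.3 CPM in the library labelled control. Lyz1, too low to be measured, had 2 counts in the Pc4-OE-labelled library and 0 in the library labelled control (which allows up to 0.288 CPM, or 3 counts). Of 12 stem cell markers, 7 had a ratio below 1 and 5 above 1, against 50.7% and 49.3% of all measured genes. Their median log2 ratio (Pc4-OE over control) was -0.13. Their sums were 5492 CPM in the library labelled Pc4-OE and 6835 CPM in the library labelled control. Tdgf1, at 1114 CPM (Pc4-OE) and 1792 CPM (control), and Pou5f1, at 571.4 CPM (Pc4-OE) and 1092 CPM (control), differed most in CPM. Together they made up most of the difference between those sums. Nanog had the highest log2 ratio of the 12 (0.24), and Sox2 stood at -0.02. Of 11 trophectoderm markers 8 were measured, with 6 above a ratio of 1 and sums of 188.2 CPM in the library labelled Pc4-OE and 100.1 CPM in the library labelled control. Cdx2 had 0 counts in the Pc4-OE-labelled library and 3 in the control-labelled one. The part of other cells in the results below was not tested, and fewer cells of a type and less RNA per cell cannot be told apart in such bulk samples.

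All 8 measured enzymes had lower values in the library labelled Pc4-OE, by sizes that differed between genes. Tet2, Tet1, Dnmt3l, Uhrf1 and Dnmt3b were between 1.53-fold and 1.75-fold lower. Dnmt1 and Dnmt3a were 1.30-fold and 1.29-fold lower, and the interval of Tet3 included no difference. Added up, the 8 genes stood at 2291 CPM in the library labelled Pc4-OE and 3586 CPM in the library labelled control, a ratio of 0.639. Among all 14213 measured genes, 50.7% had a ratio below 1 and 49.3% a ratio above 1. A gene counted as at least 1.5-fold lower when its ratio passed that size and its interval excluded 1, which held for 5 of the 8 enzymes and for 13.2% of all measured genes. At 2-fold the same rule took 0 of the 8 enzymes and 4.02% of all genes. None of the 8 was at least 1.5-fold higher, against 18.8% of all genes, or 2-fold higher, against 11.8%. The median log2 ratio (Pc4-OE over control) of the 8 was -0.66, with members from -0.81 to -0.14, and that of all measured genes was -0.01.

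**Figure D1:**
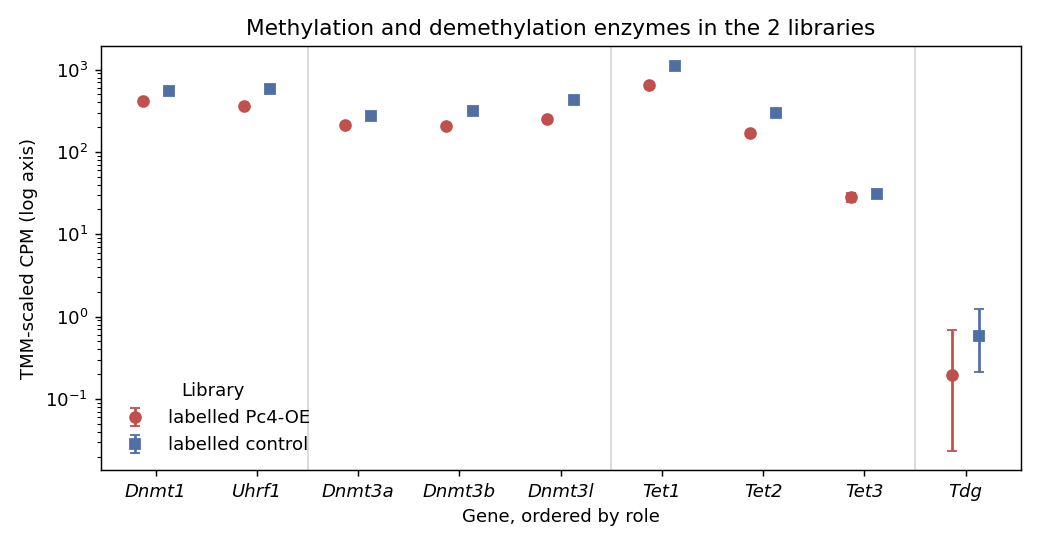
TMM-scaled CPM on a log axis for the 9 genes, ordered by role, in the library labelled Pc4-OE (red circles, left of each pair) and the library labelled control (blue squares, right). Bars are 95% Poisson intervals of the count, mostly smaller than the symbol. For Dnmt1, Uhrf1, Dnmt3a, Dnmt3b, Dnmt3l, Tet1 and Tet2 the red symbol lies below the blue one beyond those intervals, Tet3 overlaps, and Tdg rests on 2 counts (Pc4-OE) and 6 counts (control).

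Both genes of the maintenance pair were lower in the library labelled Pc4-OE. Dnmt1, the methyltransferase that copies the mark, had 4340 counts (419 CPM, Poisson interval 407 to 432) in the library labelled Pc4-OE and 5690 counts (546 CPM, 532 to 561) in the library labelled control. It was 1.30-fold lower (interval 1.25 to 1.36), a log2 ratio of -0.38. Uhrf1, the reader that recruits DNMT1, had 3723 counts (359.7 CPM, 348 to 371) in the library labelled Pc4-OE and 6099 counts (586 CPM, 571 to 601) in the library labelled control. It was 1.63-fold lower (1.56 to 1.70), a log2 ratio of -0.70. The intervals of the levels did not overlap between libraries for either gene, and Uhrf1 was the more reduced of the pair. The ratio of Uhrf1 counts to Dnmt1 counts was 0.858 in the library labelled Pc4-OE and 1.07 in the library labelled control. That is a ratio of ratios of 0.800 (exact conditional interval 0.756 to 0.847), which does not depend on how the libraries were scaled. Of the Uhrf1 mRNA, 18.9% of all stretches of 50 bases also occur in transcripts of another gene, nearly all in the processed pseudogene Gm5648, and how the authors assigned such reads is not known here. For Dnmt1 that share was 0%.

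Uhrf1 has a paralog, Uhrf2, whose protein also binds methylated and hydroxymethylated DNA. Uhrf2 had 1008 counts in the Pc4-OE-labelled library and 650 in the library labelled control, a log2 ratio of 0.64 (interval 0.50 to 0.79), the opposite direction to Uhrf1. The count ratio of Uhrf1 to Uhrf2 was 3.69 in the library labelled Pc4-OE and 9.38 in the library labelled control, a ratio of ratios of 0.394 (0.353 to 0.439). Uhrf1 was the more abundant of these paralogs in both libraries.

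The start regions of the maintenance pair are shown because both genes are known to be expressed with DNA replication. The sequences are RefSeq windows on GRCm38.p6 that run from 250 bases before to 50 bases after an annotated start. The count table has 1 value per gene, so it does not say which of the starts was used. Capitals mark matches, on either strand, to 4 E2F-type words (TTTCCCGC, TTTCGCGC, TTTGCCGC and TTTGGCGC) and to CCAAT. The third Dnmt1 window (chr9:20952574-20952873, minus strand) and the second Uhrf1 window (chr17:56304063-56304362, plus strand) read, 5′ to 3′:
Dnmt1: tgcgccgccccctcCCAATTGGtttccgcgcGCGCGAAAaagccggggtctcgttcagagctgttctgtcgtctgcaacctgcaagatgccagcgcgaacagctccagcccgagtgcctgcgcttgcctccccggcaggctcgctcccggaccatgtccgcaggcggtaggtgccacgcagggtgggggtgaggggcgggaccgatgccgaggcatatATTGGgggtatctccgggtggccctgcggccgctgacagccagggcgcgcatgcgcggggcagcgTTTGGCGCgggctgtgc
Uhrf1: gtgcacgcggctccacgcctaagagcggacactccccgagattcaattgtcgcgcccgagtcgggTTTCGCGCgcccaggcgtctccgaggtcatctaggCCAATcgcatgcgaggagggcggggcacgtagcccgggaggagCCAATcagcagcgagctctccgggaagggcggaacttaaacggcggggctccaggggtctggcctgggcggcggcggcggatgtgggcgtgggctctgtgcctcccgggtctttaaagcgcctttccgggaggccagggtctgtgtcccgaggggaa
The Dnmt1 window held 2 E2F-type words and 3 CCAAT matches, of which 2 overlap in one palindrome. The Uhrf1 window held 1 E2F-type word and 2 CCAAT matches. Each window had 33 CpGs. Among 32851 windows of the same length, 2.26% held an E2F-type word and 37.4% CCAAT, and the median number of CpGs was 7. The 2.26% is over windows of any CpG content, not over windows as rich in CpG as these. Of the 16 windows of the 9 genes, these 2 were the ones with an E2F-type word. They come from 3 windows of Dnmt1 and 2 of Uhrf1, so they do not stand for every start of the pair. A match describes the letters only.

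The de novo genes differed among themselves. Dnmt3a had 2180 counts (211 CPM, Poisson interval 202 to 220) in the library labelled Pc4-OE and 2830 counts (272 CPM, 262 to 282) in the library labelled control, 1.29-fold lower (1.22 to 1.37). Dnmt3b had 2141 counts (207 CPM, 198 to 216) in the library labelled Pc4-OE and 3291 counts (316 CPM, 305 to 327) in the library labelled control, 1.53-fold lower (1.45 to 1.61). Dnmt3l, the cofactor without catalytic activity, had 2584 counts (249.7 CPM, 240.1 to 259.5) in the library labelled Pc4-OE and 4452 counts (428 CPM, 415 to 440.3) in the library labelled control, 1.71-fold lower (1.63 to 1.80). The log2 ratios were -0.37 for Dnmt3a, -0.61 for Dnmt3b and -0.78 for Dnmt3l, and in no case did the level intervals of the libraries overlap. Dnmt3b passed the 1.5-fold size by little: with library totals in place of TMM scaling its log2 ratio was -0.57, just short of 1.5-fold, and 4 enzymes in place of 5 met the rule.

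Within the de novo group the balance was shifted towards Dnmt3a. The Dnmt3b to Dnmt3a count ratio was 0.982 in the library labelled Pc4-OE and 1.16 in the library labelled control, a ratio of ratios of 0.845 (interval 0.781 to 0.914). For Dnmt3l to Dnmt3a the count ratio was 1.19 in the library labelled Pc4-OE and 1.57 in the library labelled control, a ratio of ratios of 0.753 (0.699 to 0.812). Dnmt3l was also lower relative to Dnmt3b, with a ratio of ratios of 0.892 (0.829 to 0.960). Of the Dnmt3b mRNA, 11.5% of stretches of 50 bases also occur in another gene, in particular its tandem copy Dnmt3c, which methylates young transposons in the male germ line and is not analysed here. Dnmt3a shares 133 exonic bases with the antisense transcript Dnmt3aos, which had 0 counts in the Pc4-OE-labelled library and 1 in the library labelled control. Dnmt3l shares 67 exonic bases with Aire on the opposite strand.

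The TET genes split into a lower pair and Tet3. Tet1 had 6686 counts (646 CPM, Poisson interval 631 to 662) in the library labelled Pc4-OE and 11545 counts (1109 CPM, 1089 to 1129) in the library labelled control. It was 1.72-fold lower (1.67 to 1.77), a log2 ratio of -0.78. Tet2 had 1767 counts (171 CPM, 163 to 179) in the library labelled Pc4-OE and 3116 counts (299 CPM, 289 to 309.9) in the library labelled control, 1.75-fold lower (1.65 to 1.86), a log2 ratio of -0.81. Tet3, known best for its role in the zygote, had 290 counts (28.0 CPM, 24.9 to 31.4) in the library labelled Pc4-OE and 321 counts (30.8 CPM, 27.5 to 34.4) in the library labelled control. Its log2 ratio was -0.14 with an interval of -0.37 to 0.10, so a difference was not detectable at this depth, and one as large as that of Tet1 or Tet2 lies outside its interval. Tet1 and Tet2 kept nearly the same count ratio, with Tet2 to Tet1 at 0.264 in the library labelled Pc4-OE and 0.270 in the library labelled control (ratio of ratios 0.979, 0.916 to 1.05). Tet1 to Tet3 was 23.1 in the library labelled Pc4-OE and 36.0 in the library labelled control, a ratio of ratios of 0.641 (0.544 to 0.756). Tet2 to Tet3 was 6.09 in the library labelled Pc4-OE and 9.71 in the library labelled control, a ratio of ratios of 0.628 (0.528 to 0.746).

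In order of log2 ratio from the lowest, the genes ran Tet2, Tet1, Dnmt3l, Uhrf1, Dnmt3b, Dnmt1, Dnmt3a and Tet3. Of the 7 steps between neighbours in this order, only that from Dnmt3b to Dnmt1 had a ratio of ratios whose interval excluded 1 (0.853, 0.797 to 0.913). Over all 28 pairs of measured enzymes, the interval excluded 1 in 21 and included it in 7. The 28 pairs come from only 8 ratios, and pairs of other genes were not counted, so the 21 set nothing apart. Tet1 and Dnmt3l, a demethylating enzyme and a methylation cofactor, were the closest pair, at a ratio of ratios of 0.998 (0.942 to 1.06). With 2 libraries a pattern is a single ratio, so no other genes were named for a like pattern.

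The start windows of Tet1 (chr10:62887275-62887574, minus strand) and of Dnmt3l (its first window, chr10:78042037-78042336, plus strand) are shown because these genes had the closest ratios. Neither held an E2F-type word or CCAAT, so neither has capitals:
Tet1: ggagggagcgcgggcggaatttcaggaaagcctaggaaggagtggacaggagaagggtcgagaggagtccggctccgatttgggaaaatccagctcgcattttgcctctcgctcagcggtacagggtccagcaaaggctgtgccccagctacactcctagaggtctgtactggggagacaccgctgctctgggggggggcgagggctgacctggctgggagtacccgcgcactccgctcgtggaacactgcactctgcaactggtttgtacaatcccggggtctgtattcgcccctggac
Dnmt3l: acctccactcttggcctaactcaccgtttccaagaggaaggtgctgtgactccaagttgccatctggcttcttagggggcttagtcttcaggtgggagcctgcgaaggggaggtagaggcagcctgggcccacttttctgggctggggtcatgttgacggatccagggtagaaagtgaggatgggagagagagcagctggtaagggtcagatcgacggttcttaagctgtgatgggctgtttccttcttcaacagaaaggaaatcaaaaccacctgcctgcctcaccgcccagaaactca
The Tet1 window had 17 CpGs and that of Dnmt3l 6, so the pair with the closest ratios differed in CpG content. The other 2 Dnmt3l windows had 4 and 3 CpGs. Tet2, with the lowest ratio, had 57 CpGs in its window, which stood at the 99.8th percentile of all windows.

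**Figure D2:**
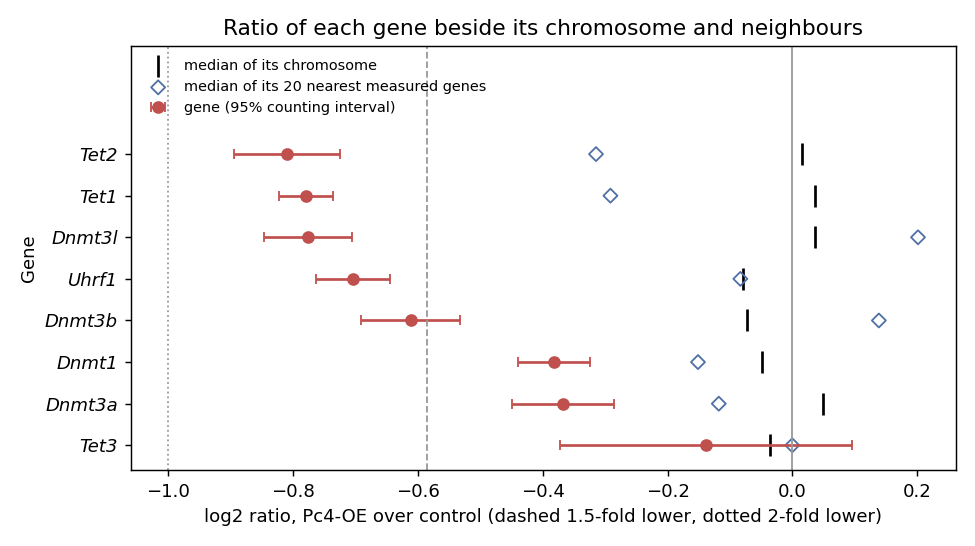
Log2 ratio, Pc4-OE over control, of the 8 measured enzymes (red points, bars are 95% counting intervals), ordered by ratio. Black ticks give the median of other genes on the same chromosome and open diamonds the median of the 20 nearest measured genes, all among genes averaging 5 CPM or more; the dashed and dotted lines mark 1.5-fold and 2-fold lower. The points of Tet2, Tet1, Dnmt3l and Uhrf1 lie between -0.81 and -0.70, while every chromosome median lies between -0.08 and 0.05.

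The 8 measured genes lie on 7 chromosomes. On GRCm38 the maintenance genes span chr9:20907206-20959888 (Dnmt1) and chr17:56303337-56323486 (Uhrf1). The de novo genes span chr12:3801559-3914443 (Dnmt3a), chr2:153649411-153687730 (Dnmt3b) and chr10:78042287-78063622 (Dnmt3l). The TET genes span chr10:62804570-62887469 (Tet1), chr3:133463677-133545136 (Tet2) and chr6:83362373-83457208 (Tet3), and Tdg spans chr10:82629814-82650799. The median log2 ratios of those chromosomes, over genes averaging 5 CPM or more and without the enzymes, were between -0.08 (chromosome 17) and 0.05 (chromosome 12). Dnmt3l and Tet1 share chromosome 10 with Tdg, and its median was 0.04 over 559 genes. Among the 20 nearest measured genes, 0 had a lower log2 ratio than Dnmt3l, 1 than Uhrf1, 2 each than Dnmt3b and Tet2 and 3 than Tet1. For Dnmt1 and Dnmt3a the number was 6 each, and for Tet3 it was 5. The 20 neighbours of Tet2 and of Tet1 had medians of -0.31 and -0.29, and those of Dnmt3l and Dnmt3b had medians of 0.20 and 0.14. For Dnmt1 the median was -0.15, for Dnmt3a -0.12, for Uhrf1 -0.08 and for Tet3 -0.0003. The farthest of the 20 lay from 0.34 Mb (Uhrf1) to 4.41 Mb (Dnmt3a) away. Among the 11567 genes averaging 5 CPM or more, the log2 ratio of Tet2 stood at the 6.09th percentile, that of Uhrf1 at the 9.17th, that of Dnmt3b at the 12.5th, that of Dnmt1 at the 25.1st and that of Tet3 at the 43.0th.

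Levels of different genes were compared per length, as CPM per kilobase of annotated exon. On that scale Uhrf1 stood at 84.5 in the library labelled Pc4-OE and 138 in the library labelled control, and Dnmt3l at 83.6 in the library labelled Pc4-OE and 143 in the library labelled control. Dnmt1 was at 56.8 in the library labelled Pc4-OE and 74.1 in the library labelled control, Tet1 at 41.8 (Pc4-OE) and 71.7 (control), and Dnmt3b at 40.5 (Pc4-OE) and 61.9 (control). Dnmt3a, at 12.7 in the library labelled Pc4-OE and 16.3 in the library labelled control, and Tet2, at 10.1 (Pc4-OE) and 17.7 (control), were much lower. Tet3 was lowest of the 8, at 1.68 in the library labelled Pc4-OE and 1.85 in the library labelled control. Dnmt3l and Uhrf1 thus stood above 97.0% and 97.1% of 13762 genes with a length in the library labelled Pc4-OE, and Tet3 above 20.0%.

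Per length, the order of genes within each role was the same in both libraries. Dnmt3l gave 61.1% of the de novo group in the library labelled Pc4-OE and 64.7% in the library labelled control, Dnmt3b 29.6% (Pc4-OE) and 28.0% (control), and Dnmt3a 9.26% (Pc4-OE) and 7.38% (control). Tet1 gave 78.0% of the TET group in the library labelled Pc4-OE and 78.6% in the library labelled control, Tet2 18.9% (Pc4-OE) and 19.4% (control), and Tet3 3.13% (Pc4-OE) and 2.02% (control). Uhrf1 gave 59.8% of the maintenance pair in the library labelled Pc4-OE and 65.0% in the library labelled control. The shares depend on the length used: with the longest transcript in place of all annotated exons, Tet2 gave 28.1% of the TET group in the library labelled Pc4-OE and 29.0% in the library labelled control.

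**Figure D3:**
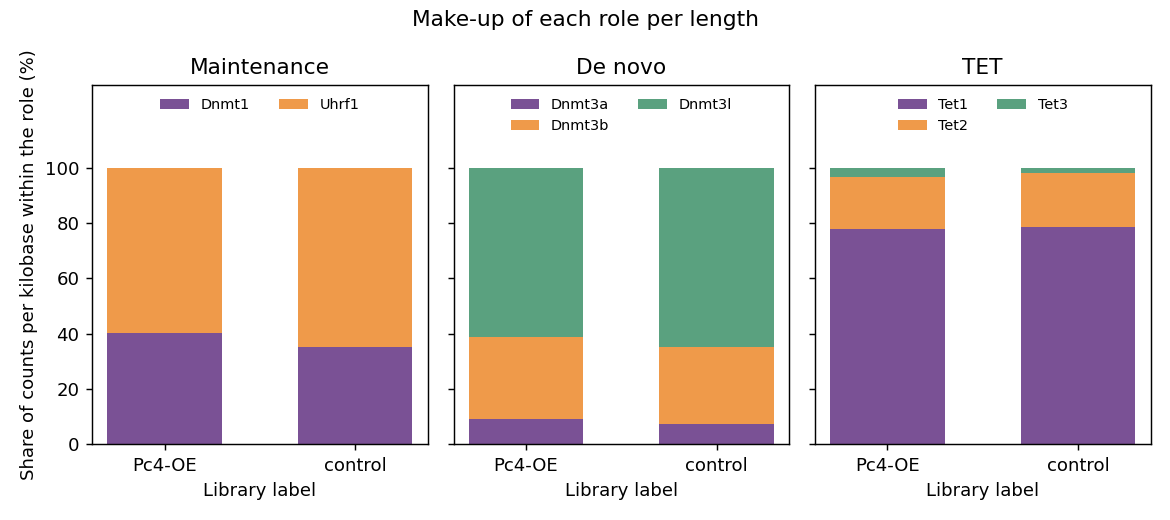
Share of counts per kilobase of annotated exon taken by each gene within its role, in the library labelled Pc4-OE (left bar) and the library labelled control (right bar). Dnmt3l and Tet1 hold most of their groups in both libraries, at 61.1% and 78.0% in the library labelled Pc4-OE, and Tet3 the least of the TET group.

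Tdg, the glycosylase of the demethylation route, could not be measured. It had 2 counts in the Pc4-OE-labelled library and 6 in the library labelled control, under the minimum of 20 counts over both. The ratio of these counts was 0.335 with an interval of 0.0331 to 1.88. Tdg has processed pseudogenes that are near-identical to its mRNA. In GENCODE M21, Tdg-ps on chromosome 15 is 98.7% identical to it over 2968 aligned bases, Gm9855 on chromosome 10 is 99.2% identical over 1194 and Gm5597 on chromosome 7 is 99.3% identical over 1193. Of all stretches of 50 bases in the Tdg mRNA, 66.3% also occur in a transcript of another gene, against at most 18.9% in the other enzymes. Tdg also shares 367 exonic bases with Glt8d2 on the opposite strand, and the strand setting of the counting is not given in the sources used here. Gm9855 had 0 counts in both libraries, and counts of Tdg-ps and Gm5597 were not analysed here. The middle of the longest coding exon of Tdg (exon 3 of the transcript, chr10:82641396-82641475, plus strand, GRCm38) is shown beside the same 80 bases of the pseudogenes, at chr15:82516691-82516770 (plus), chr10:42055020-42055099 (minus) and chr7:76245653-76245732 (minus), with a capital where a base differs from Tdg:
Tdg: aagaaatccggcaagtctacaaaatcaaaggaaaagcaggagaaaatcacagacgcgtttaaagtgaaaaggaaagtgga
Tdg-ps: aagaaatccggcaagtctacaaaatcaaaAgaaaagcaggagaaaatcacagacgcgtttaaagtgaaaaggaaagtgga
Gm9855: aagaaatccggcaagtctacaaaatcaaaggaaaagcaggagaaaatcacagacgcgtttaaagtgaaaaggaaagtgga
Gm5597: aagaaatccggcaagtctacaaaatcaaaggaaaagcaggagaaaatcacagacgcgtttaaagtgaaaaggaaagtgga
Gm9855 and Gm5597 differ from Tdg at 0 of these bases and Tdg-ps at 1, so a read from this stretch has no single place in the genome. How the authors treated reads with several places is not given in the sources used here, and the low Tdg count is not read as a low level.

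Genes that work with these enzymes were then compared, in lists chosen by function. Of 10 partners of maintenance, 9 had a ratio below 1, against 50.7% of all measured genes, and the median log2 ratio was -0.55. At least 1.5-fold lower were 4, against 13.2% of all genes, and 1, Uhrf2, was higher by that rule, against 18.8%. The lowest was Pcna, the replication clamp that DNMT1 binds, at 100.3 CPM in the library labelled Pc4-OE and 195 CPM in the library labelled control (log2 ratio -0.96, interval -1.07 to -0.85). Lig1 (-0.66), the DNA ligase that recruits UHRF1, Hells (-0.65), a remodeller needed for full methylation, and Usp7 (-0.60), a deubiquitinase of DNMT1 and UHRF1, were the other 3. A list of 14 replication and cell cycle genes had 14 members below a ratio of 1, against 50.7% of all genes, and 7 were at least 1.5-fold lower, against 13.2%, with a median of -0.60. In that list Tyms, which makes thymidylate, was lowest (-1.32) and Ccna2, cyclin A2, highest (-0.27). Tyms and Mcm7 lie on chromosome 5, whose genes had a median of -0.32. The 8 enzymes, at a median of -0.66, thus stood near the replication genes, which share Pcna with the partner list. Whether the cells differed in growth was not tested.

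Of 11 partners of de novo methylation and of locus protection, 7 had a ratio below 1, 0 were at least 1.5-fold lower and 2 were higher, with a median of -0.40. Over all genes 50.7% had a ratio below 1 and 13.2% were at least 1.5-fold lower. The share higher was near the 18.8% of all genes, so that count sets nothing apart. The 7 lower ones lay close together, from -0.49 for Daxx, the histone chaperone, to -0.33 for Trim28, the scaffold that holds methylation at imprints. Zfp57, the zinc finger protein that brings TRIM28 to imprints, had a log2 ratio of -0.47. Dppa3, which encodes the oocyte protein STELLA that keeps UHRF1 from chromatin, had 104 counts in the Pc4-OE-labelled library and 52 in the library labelled control, 2.01-fold higher (1.43 to 2.86). Ctcfl, a germline paralog of CTCF, had 18 counts in the Pc4-OE-labelled library and 7 in the control-labelled one (log2 ratio 1.37, interval 0.04 to 2.87).

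Listed as readers of methylated CpG, or as their relatives with a similar domain, were 8 genes. Of these, 3 were below a ratio of 1, against 50.7% of all measured genes, and the median log2 ratio was 0.07. By the 1.5-fold rule 1 gene was lower and 1 higher, near the 13.2% and 18.8% of all genes, so these counts set nothing apart. Mbd3, a NuRD subunit whose mammalian protein does not bind methylated CpG selectively, was at least 1.5-fold lower, at 76.9 CPM in the library labelled Pc4-OE and 128 CPM in the library labelled control (-0.74). Zbtb4 was 2.64-fold higher (2.20 to 3.20), at 40.4 CPM in the library labelled Pc4-OE and 15.3 CPM in the library labelled control. The CXXC domain, which binds unmethylated CpG, is present in TET1, TET3 and DNMT1 and in other proteins. Of 8 genes listed for such other proteins, 6 were below a ratio of 1, against 50.7% of all genes. The median log2 ratio was -0.13, and by the 1.5-fold rule 1 gene was lower and 1 higher, again near the shares of all genes. Kdm2b, which recruits a Polycomb complex to CpG islands, was 2.62-fold lower (log2 ratio -1.39, interval -1.52 to -1.26), at 63.8 CPM in the library labelled Pc4-OE and 167 CPM in the library labelled control, and lies on chromosome 5. Cxxc4, whose gene neighbours Tet2 and whose protein binds TET2, had 28 counts in the Pc4-OE-labelled library and 8 in the library labelled control, a log2 ratio of 1.82 (0.64 to 3.16), the opposite direction to Tet2.

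The later steps of demethylation did not share a direction. Of 14 base excision repair and GADD45 genes, 6 had a ratio below 1, 1 was at least 1.5-fold lower and 3 were higher, with a median of 0.09. Over all genes 50.7% had a ratio below 1, and 13.2% were lower and 18.8% higher by the 1.5-fold rule. The counts of this list are thus near the background, and the genes below are given as single values. Apex1, the endonuclease that acts after the glycosylases, was 2.26-fold lower (1.98 to 2.58), at 31.5 CPM in the library labelled Pc4-OE and 71.1 CPM in the library labelled control. Neil2, a glycosylase that works with TDG, was 2.08-fold higher (1.69 to 2.57). Gadd45b and Gadd45g, stress-induced adaptors linked to demethylation, were 2.75-fold higher (2.19 to 3.46) and 2.34-fold higher (1.82 to 3.02), and Gadd45a had a log2 ratio of 0.56. Parp1, the abundant strand break sensor, had a log2 ratio of -0.06 (-0.10 to -0.01). The fibroblast and macrophage markers, described above, lay in the direction of the higher genes, and whether such cells gave these counts was not tested.

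Supply of the cofactors was mixed as well. Of 8 genes for TET cofactor supply and TET partners, 5 were below a ratio of 1, against 50.7% of all genes. The median log2 ratio was -0.12. By the 1.5-fold rule 1 gene was lower and 1 higher, near the 13.2% and 18.8% of all genes. Rest was at least 1.5-fold lower (-0.69, on chromosome 5) and Hif1a, the hypoxia factor, at least 1.5-fold higher (0.75). Idh1 (-0.22) and Idh2 (-0.03), which make the alpha-ketoglutarate that TET enzymes use, and Ogt (0.23), which binds TET proteins, met neither rule. Of 8 genes of the S-adenosylmethionine cycle, which supplies the methyl group, 4 were below a ratio of 1, against 50.7% of all genes. The median log2 ratio was -0.15. By the 1.5-fold rule 1 gene was lower and 0 higher, against 13.2% and 18.8% of all genes. Mat2a, the enzyme that makes S-adenosylmethionine, was lowest, at 202 CPM in the library labelled Pc4-OE and 348 CPM in the library labelled control (-0.78, interval -0.86 to -0.70). Ahcyl1 was highest (0.51).

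Germline genes that promoter methylation is known to keep silent in somatic cells were compared last. Of 14 such genes 13 were measured, 3 had a ratio below 1, 5 were at least 1.5-fold higher and 1 was lower by that rule, with a median of 0.53. Asz1 was highest, at 85 counts in the Pc4-OE-labelled library and 27 in the library labelled control (log2 ratio 1.66, interval 1.02 to 2.35), followed by Sycp3, a protein of the meiotic chromosome axis (1.28, 0.92 to 1.66), and Dazl, an RNA-binding protein of germ cells (0.83, 0.64 to 1.02). Rpl10l was lowest (-1.05). It is a retrocopy of Rpl10, so its count is uncertain. The log2 ratios of the 13 ran from -1.05 to 1.66, on both sides of the all-gene median of -0.01, so the list had no single direction. Of all genes, 50.7% had a ratio below 1, 18.8% were at least 1.5-fold higher and 13.2% lower. No methylation was measured in these samples.

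**Figure D4:**
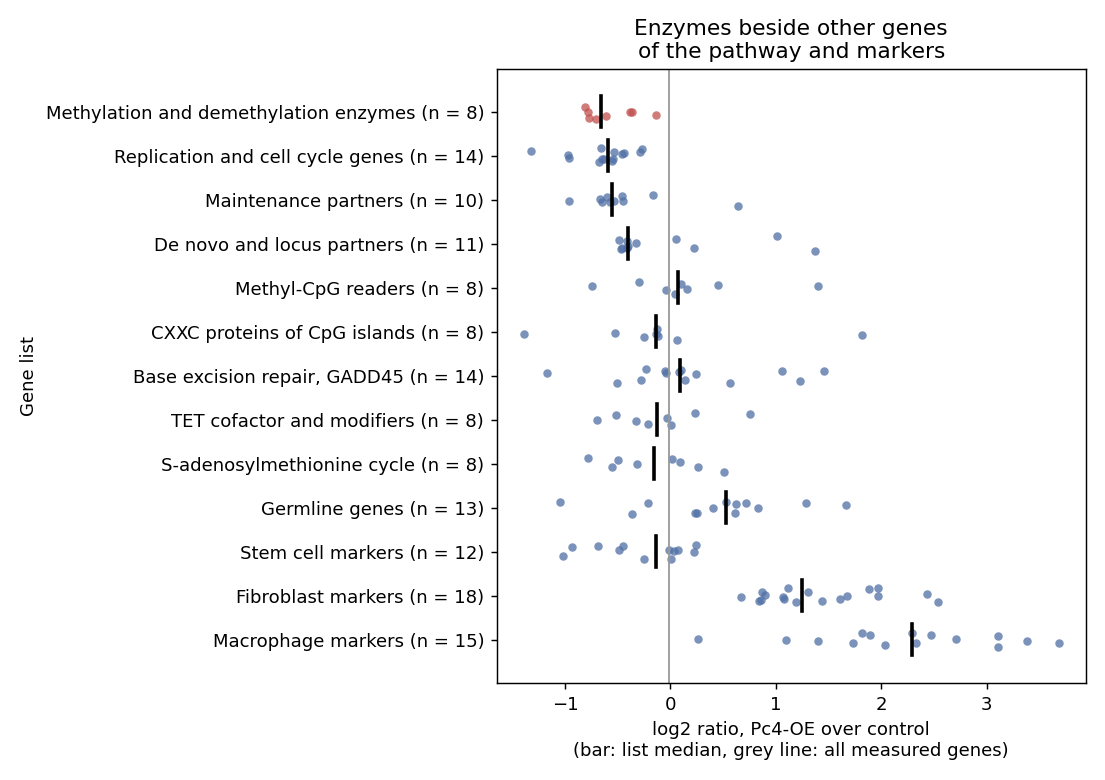
Log2 ratio, Pc4-OE over control, of each measured gene (points) in the enzyme group (red, top), in the lists of partners and in the marker lists (blue), with a bar at each median. The grey line is the median of all 14213 measured genes. The enzymes (median -0.66) and the replication genes (median -0.60) lie left of the line and all points of the macrophage (median 2.29) and fibroblast lists (median 1.25) right of it. The germline genes (median 0.53) lie on both sides, 3 of 13 to the left.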

How the data were processed

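The authors deposited 1 table of whole-number read counts per gene with a column for each of the 2 libraries, made with STAR 2.4.1c and featureCounts on mm10 per the submitters' processing notes. The sources used here do not give the annotation, the strand setting or the treatment of multi-mapping reads. The counts were scaled to CPM on TMM effective library sizes (edgeR 4.0.16) over the whole table, and ratios of Pc4-OE to control were taken without a pseudocount for genes with at least 20 counts summed. Intervals of ratios are exact (Clopper-Pearson) at 95%, those of a ratio of ratios are exact conditional (Fisher) intervals, and those of levels are Poisson. No test across samples is possible with 1 library per label. The rules for 1.5-fold and 2-fold differences ask for that size and an interval that excludes 1. Members and lists were chosen with earlier results of these data known. Named are the 9 enzymes, Sub1, and from each pathway list the members past the 2-fold rule and the highest and lowest; other names were added after their values were seen. Positions are from RefSeq (GRCm38.p6), exon lengths and shared stretches from GENCODE M21, the longest protein-coding transcript with a curated accession standing for the mRNA. The intervals were tried on simulated Poisson counts without variation between cultures, so that trial speaks to counting error only.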

Additional observations from a re-analysis of the deposited data

How the results depend on the processing

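With library totals, DESeq2 1.42.0 size factors or a pseudocount of 0.5 CPM in place of the TMM scaling, all 8 measured enzymes kept a ratio below 1. Library totals moved their log2 ratios by 0.04 and gave Tet1 -0.74, just outside its counting interval. They moved the median of all genes to 0.03. DESeq2 size factors and the pseudocount moved the enzymes by at most 0.01 in size. With at least 100 counts summed, 1 partner of de novo methylation was at least 1.5-fold higher in place of 2, and 0 of the CXXC proteins in place of 1, since Ctcfl and Cxxc4 no longer counted. Levels per kilobase moved beyond their counting intervals for all 8 enzymes with the longest transcript. The other list counts stayed within 1.5-fold under the alternatives run, and no median of a pathway list changed sign. The germline median, 0.53 in the main setting, was 0.57 with library totals and 0.46 with at least 100 counts summed. No paired analysis was possible because each label has 1 library, and leaving out a library leaves no comparison. Depth limits Tet3 most of the 8 measured enzymes, and the Tdg count is not read as a level because of the shared sequence described above.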
